A study of Mus musculus with 6 samples.

Results

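The genes described here are *Il10*, which encodes the cytokine IL-10, and 7 transcription factors that promote or restrain its expression in CD4 T cells, namely *Maf*, *Prdm1*, *Ahr*, *Batf*, *Irf4*, *Bhlhe40* and *Bcl6*. They were picked by name and function and make up 8 of the 56748 genes in the deposited count table. The study asked how phosphoglycerate mutase (PGAM), an enzyme of glycolysis, bears on the differentiation of regulatory T cells (Tregs). Naïve CD4 T cells, isolated by negative selection from spleens and lymph nodes of wild-type C57BL/6 mice aged 6 to 10 weeks and labelled splenocytes, were cultured for 72 hr toward the Treg fate with antisense oligonucleotides (ASOs), synthetic single strands that pair with a chosen RNA. All cultures received IL-2 at 10 ng/mL, TGF-β at 1 ng/mL, blocking antibodies to IFNγ and IL-4 at 5 μg/mL each, antibodies to CD3 and CD28 at 2 μg/mL each, and ASO at 10 μM from day 0. In 3 cultures the ASO was scrambled and in 3 it was directed at *Pgam*, and polyA RNA of the unsorted cells was sequenced. The study describes them as biological replicates and does not say whether they came from separate mice, so p-values measure the spread between these cultures.

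IL-10 is a cytokine that damps inflammation, and several CD4 lineages make it, including Tregs, type 1 regulatory (Tr1) cells and helper T cells late in a response. No single lineage factor controls it. c-MAF drives *Il10* in most helper lineages, BLIMP-1 (encoded by *Prdm1*) and the aryl hydrocarbon receptor add to it, and BATF and IRF4 bind DNA together after T cell receptor signalling, while BHLHE40 represses *Il10* and BCL6 opposes BLIMP-1.

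Total counts were 17588755, 18032805 and 16231127 in scrambled ASO replicates 1, 2 and 3, and 16589933, 15860476 and 16803881 in *Pgam* ASO replicates 1, 2 and 3. Levels are given as CPM, counts scaled to a common library size with TMM factors, and differences as log2 fold changes (log2FC) of *Pgam* ASO over scrambled ASO, with the standard error (SE) of the fit. At this depth 3 counts, taken as the floor, correspond to 0.162 to 0.192 CPM, a limit that covers counting error only. The targeted genes were examined first. *Pgam1* had 600, 478 and 707 CPM with scrambled ASO and 658, 661 and 707 CPM with *Pgam* ASO, and *Pgam2*, the muscle isoform, had 5.23, 6.75 and 2.85 CPM against 2.98, 2.69 and 2.60 CPM. Of the 31-base stretches of *Pgam1*, 37.1% occur in other genes, mainly the pseudogene *Pgam1-ps2*. That pseudogene had 749 counts over the 6 libraries, and *Pgam1* had 8847 to 11949 in each library. The groups overlapped for both genes, and neither passed edgeR's quasi-likelihood test (adjusted p = 0.331 and 0.0854). *Pgam2* passed in 2 of 13 alternative fits, one of them without a filter on low counts (adjusted p = 0.0292). Groups are therefore named throughout by their labels. *Foxp3*, which encodes the factor that defines Tregs, was read in every library, at 282, 371 and 222 CPM with scrambled ASO and 89.7, 109 and 131 CPM in the libraries labelled *Pgam* ASO. Of its stretches, 26.4% are shared, mainly with the antisense *Flicr*. *Flicr* had 720 counts over the 6 libraries, and *Foxp3* had 1444 to 6862 in each library.

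Of the 8 genes, 3 passed edgeR's test at an adjusted p of 0.05, with adjustment over all 14936 genes tested, a rule that called 17.2% of those genes. *Batf* was higher in the libraries labelled *Pgam* ASO, where 8.03% of all tested genes were called higher, and *Maf* and *Bcl6* were lower, where 9.15% were called lower. The largest of these changes was that of *Bcl6*, 3.91-fold lower, against 1.52-fold lower for *Maf* and 1.69-fold higher for *Batf*. *Irf4* and *Bhlhe40* fell just outside the threshold, and *Il10* itself did not pass. All 8 genes were kept by the filter on low counts. In bulk RNA, fewer cells expressing a gene and less of its RNA per cell cannot be told apart, which holds for every value below.

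**Figure D1:**
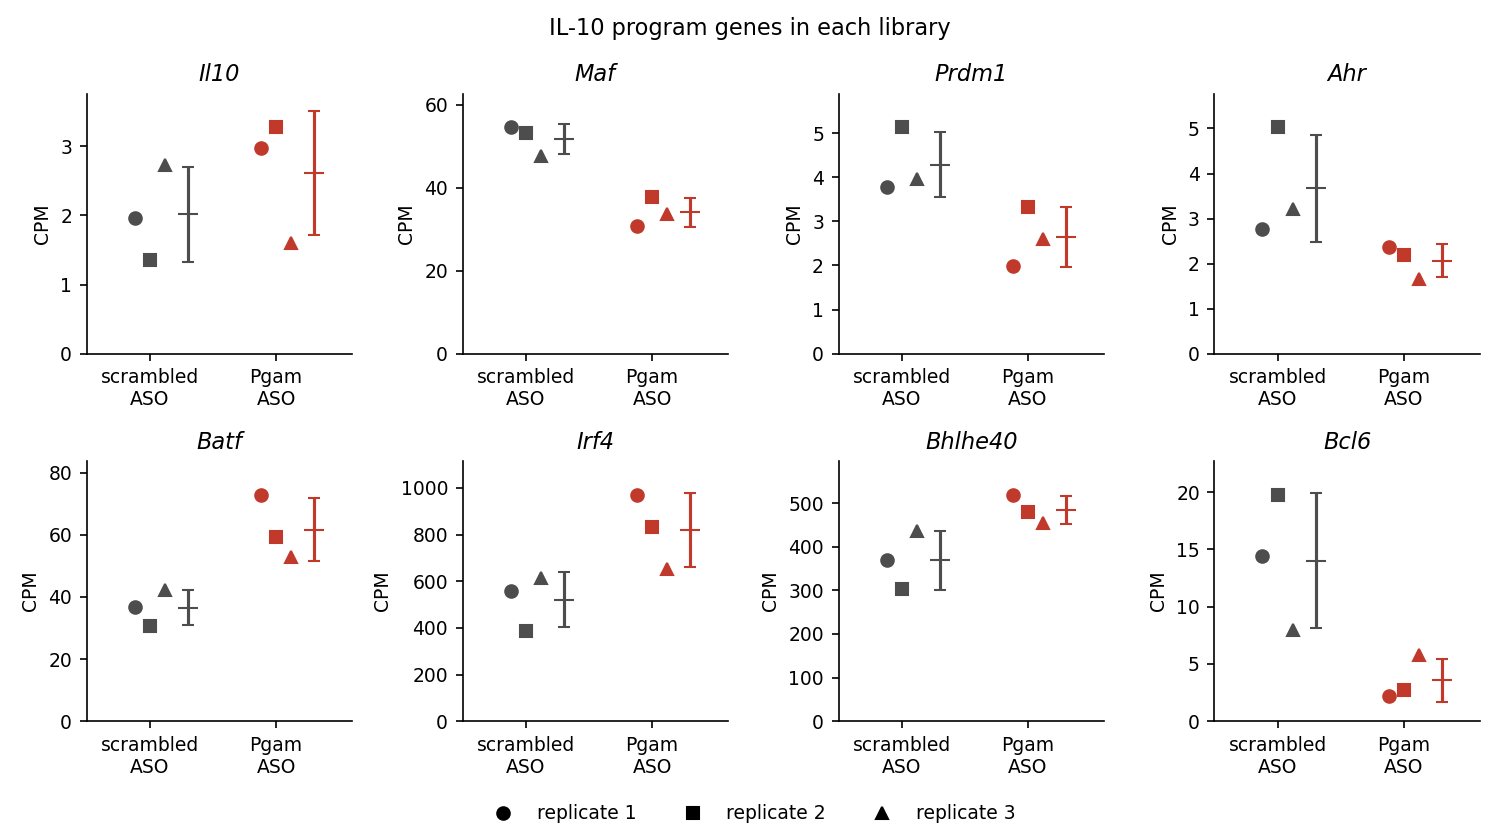
TMM-scaled CPM (y axis, from 0, a separate scale for each gene) of the 8 genes in the 3 libraries of each label. Points are libraries, with the replicate shown by shape, and bars give the mean and SD; the labels overlap for *Il10* and do not overlap for the other 7 genes.

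*Il10* (ENSMUSG00000016529; chromosome 1, 131019845 to 131024974 on GRCm38) encodes the cytokine. It was counted 35, 25 and 44 times in scrambled ASO replicates 1, 2 and 3 and 48, 51 and 27 times in *Pgam* ASO replicates 1, 2 and 3, or 1.97, 1.35 and 2.73 CPM against 2.98, 3.27 and 1.6 CPM. Replicates 1 and 2 labelled *Pgam* ASO held the highest values, but replicate 3 lay below 2 of the scrambled libraries. The mean was 2.02 ± 0.689 CPM (SD, n = 3) with scrambled ASO and 2.62 ± 0.895 CPM (SD, n = 3) with *Pgam* ASO, and log2FC was 0.38 (SE 0.36, adjusted p = 0.493 in edgeR's test). The 95% interval of the fold ran from 0.742 to 2.28, so these values are compatible with differences in that range. With 1 library left out the estimate ran from 0.15 without scrambled replicate 2 to 0.66 without scrambled replicate 3. None of 13 alternative fits brought *Il10* past the threshold, with adjusted p from 0.212 to 0.838.

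Among the promoting factors, *Maf* (ENSMUSG00000055435; chromosome 8, 115682942 to 115707794) encodes c-MAF, a basic leucine zipper protein that binds and activates *Il10*. It had 54.6, 53.3 and 47.8 CPM in the scrambled libraries and 30.8, 37.9 and 33.7 CPM in those labelled *Pgam* ASO. The lowest scrambled library stood well above the highest *Pgam* ASO library, and the spread within each label was small. The mean fell from 51.9 ± 3.62 to 34.1 ± 3.55 CPM (SD, n = 3 each), and log2FC was -0.61 (SE 0.11, edgeR adjusted p = 0.00779). *Maf* passed in all 13 alternative fits, including each of the 6 with a library left out, with log2 fold changes between -0.69 and -0.53. Of its 31-base stretches, 5.38% occur in another gene, mainly *Gm15655* on the opposite strand, which had 0 counts in every library.

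*Prdm1* (ENSMUSG00000038151; chromosome 10, 44437177 to 44528501) encodes the zinc finger repressor BLIMP-1, which is needed for IL-10 production in effector Tregs. Its level was 3.77, 5.13 and 3.97 CPM with scrambled ASO and 1.99, 3.34 and 2.60 CPM with *Pgam* ASO. *Ahr* (ENSMUSG00000019256; chromosome 12, 35497974 to 35535038) encodes a ligand-activated receptor that pairs with c-MAF on the *Il10* promoter in Tr1 cells, and its level was 2.76, 5.02 and 3.22 CPM against 2.36, 2.18 and 1.66 CPM. For both genes every scrambled library lay above every *Pgam* ASO library, with scrambled replicate 2 the highest of all 6. Neither passed: the log2 fold changes were -0.70 for *Prdm1* (SE 0.27, edgeR adjusted p = 0.0955) and -0.83 for *Ahr* (SE 0.31, edgeR adjusted p = 0.0839). Without scrambled replicate 2 the estimate for *Ahr* was -0.53 (adjusted p = 0.303, with a range of 0.0737 to 0.303 over the alternatives). Counts were low, 32 to 95 per library for *Prdm1* and 28 to 93 for *Ahr*.

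*Batf* (ENSMUSG00000034266; chromosome 12, 85686669 to 85709087) encodes an AP-1 family partner of IRF4 that opens chromatin in activated T cells. It had 36.8, 30.8 and 42.2 CPM in the scrambled libraries and 72.9, 59.3 and 52.9 CPM in those labelled *Pgam* ASO. The labels did not overlap, with *Pgam* ASO replicate 1 the highest and scrambled replicate 2 the lowest. The mean rose from 36.6 ± 5.71 to 61.7 ± 10.2 CPM (SD, n = 3 each), and log2FC was 0.75 (SE 0.14, edgeR adjusted p = 0.0108). Without *Pgam* ASO replicate 2 the change was 0.78 with an adjusted p of 0.0569, the one of the 13 fits that ended the call, and over them adjusted p ran from 2.43e-09 to 0.0569.

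*Irf4* (ENSMUSG00000021356; chromosome 13, 30749226 to 30766976) encodes a factor induced in proportion to T cell receptor signal strength. Its level was 559, 388 and 613 CPM in the scrambled libraries and 970, 834 and 654 CPM in the libraries labelled *Pgam* ASO. The labels did not overlap, but *Pgam* ASO replicate 3 stood only slightly above scrambled replicate 3. Means were 520 ± 117 and 819 ± 158 CPM (SD, n = 3 each), and log2FC was 0.66 (SE 0.19, edgeR adjusted p = 0.0507). The gene passed in 8 of the 13 alternative fits, among them DESeq2 (adjusted p = 0.00169) and limma-voom (adjusted p = 0.0359), and the adjusted p over all of them ran from 5.92e-07 to 0.137. Leaving out scrambled replicate 3 or *Pgam* ASO replicate 3 brought it past the threshold (adjusted p = 0.0367 and 0.0182).

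Of the restraining factors, *Bhlhe40* (ENSMUSG00000030103; chromosome 6, 108660629 to 108666925) encodes a basic helix-loop-helix repressor of *Il10*. It was read at 368, 302 and 437 CPM with scrambled ASO and 519, 479 and 455 CPM with *Pgam* ASO. Scrambled replicate 3 and *Pgam* ASO replicate 3 were close, and the labels did not overlap. Log2FC was 0.39 (SE 0.13, edgeR adjusted p = 0.0552), and DESeq2 and edgeR without a filter on low counts called it (adjusted p = 0.0205 and 0.000853, within a range up to 0.167). Without scrambled replicate 3 it passed, at 0.53 (adjusted p = 0.0107). The antisense gene *0610040F04Rik* overlaps its start and had 6 to 10 counts per library.

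*Bcl6* (ENSMUSG00000022508; chromosome 16, 23965052 to 23988852) encodes the repressor that directs T follicular helper cells. It was counted 256, 366 and 128 times in scrambled replicates 1, 2 and 3 and 36, 43 and 97 times in *Pgam* ASO replicates 1, 2 and 3, or 14.4, 19.8 and 7.93 CPM against 2.24, 2.76 and 5.74 CPM. Both labels held 1 library near the other: scrambled replicate 3 was the lowest of its label and *Pgam* ASO replicate 3 the highest of its own, without overlap. The mean fell from 14.0 ± 5.93 to 3.58 ± 1.89 CPM (SD, n = 3 each), and log2FC was -1.97 (SE 0.42, 95% interval -2.94 to -0.99, edgeR adjusted p = 0.022). The call was lost without scrambled replicate 1 (log2FC -1.95, adjusted p = 0.0672), without scrambled replicate 2 (-1.64, 0.0527), without *Pgam* ASO replicate 1 (-1.72, 0.0614) and without *Pgam* ASO replicate 2 (-1.81, 0.0949), and also with the replicate number as a block (-1.97, 0.0644). It held without scrambled replicate 3 (-2.24, 0.00533) and without *Pgam* ASO replicate 3 (-2.48, 0.00484).

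**Figure D2:**
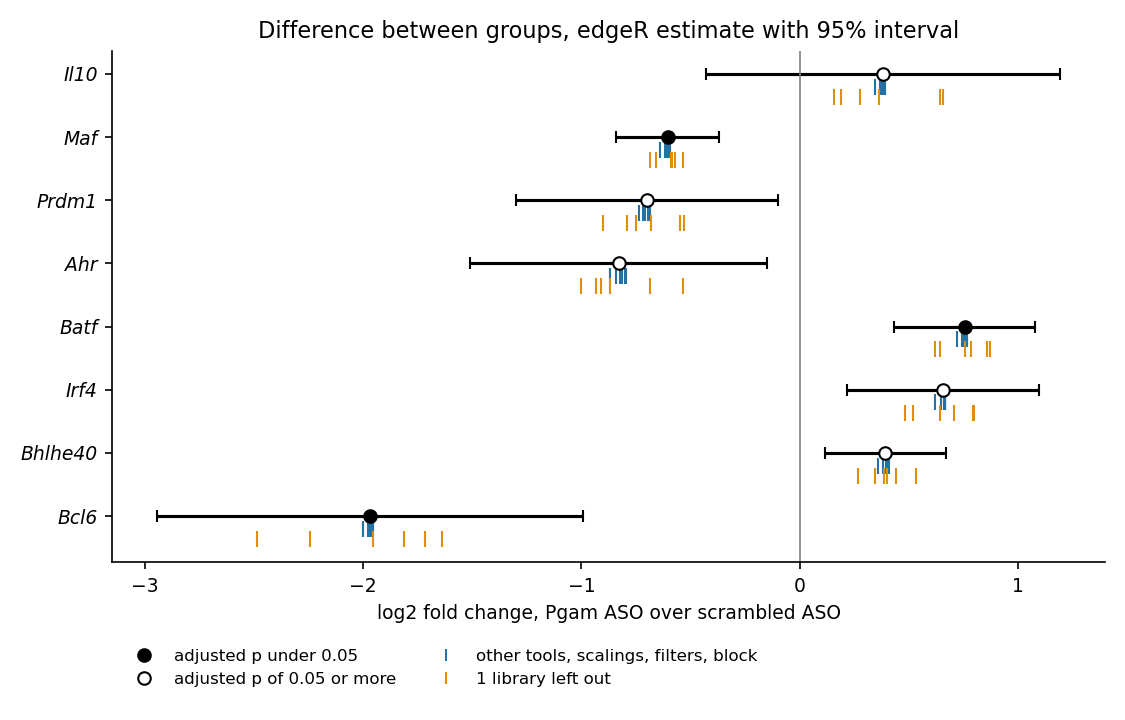
Log2 fold change (x axis) of each gene, *Pgam* ASO over scrambled ASO, from edgeR, with its 95% interval as a bar; filled circles mark an adjusted p under 0.05. Ticks below each bar are the alternatives, which reuse the same counts and lie on the same side of 0 as the main estimate for all 8 genes.

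In 7 of the 8 genes the libraries of one label all lay above those of the other, which held for 39.5% of all tested genes. DESeq2 called 5 of the 8, *Irf4* and *Bhlhe40* in addition to the 3 above, where it called 20.7% of the genes it gave an adjusted p. The median log2 fold change of the 8 was -0.11, beside -0.0061 for all tested genes, with 4 estimates above 0 and 4 below. Promoting factors moved both ways. *Maf* was lower and *Batf* higher, and the factors that did not pass had estimates below 0 for *Prdm1* and *Ahr* and above 0 for *Irf4*.

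Of the 3 libraries of a label, 2 are always its highest and lowest. Scrambled replicate 2 and *Pgam* ASO replicate 1 held one of these places for 7 of the 8 genes, replicate 3 of each label for 6, and scrambled replicate 1 and *Pgam* ASO replicate 2 for 3. Scrambled replicate 2 was the lowest of its label for *Il10*, *Batf*, *Irf4* and *Bhlhe40* and the highest for *Prdm1*, *Ahr* and *Bcl6*. *Pgam* ASO replicate 3 was the lowest of its label for *Il10*, *Ahr*, *Batf*, *Irf4* and *Bhlhe40* and the highest for *Bcl6*. Its log2 CPM, centred on each gene's own mean, was 0.03 for *Irf4* and -0.20 for *Bcl6*, against 0.59 and -1.51 in *Pgam* ASO replicate 1.

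**Figure D3:**
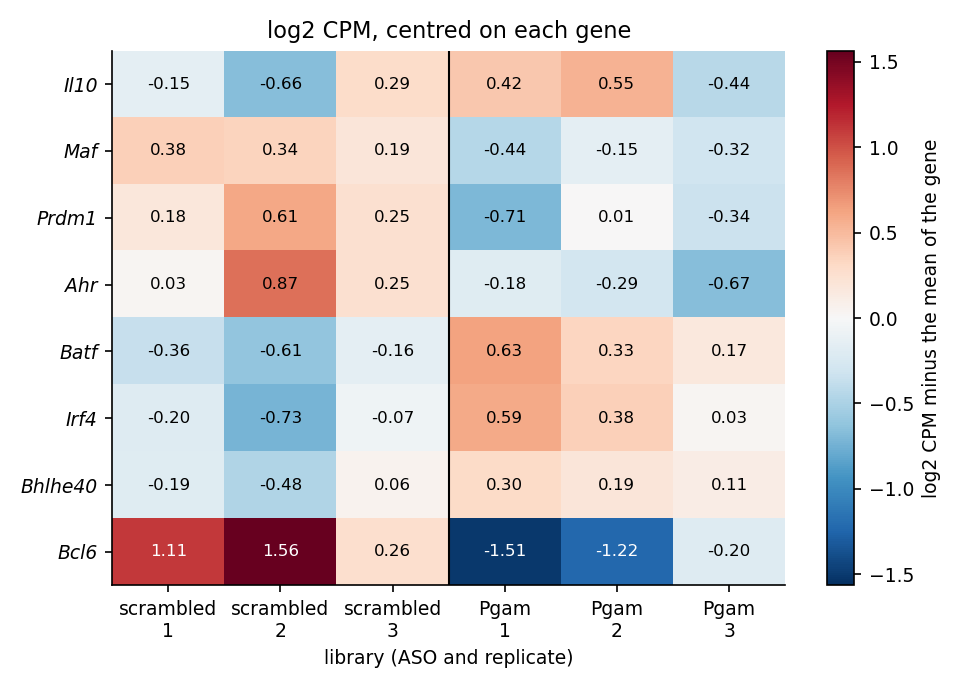
Log2 CPM of each gene in each library after the gene's mean over the 6 libraries was subtracted (colour and printed value). Scrambled replicate 2 and *Pgam* ASO replicate 1 hold the strongest values for *Bcl6*, at 1.56 and -1.51.

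Because BCL6 and BLIMP-1 repress each other's genes, the log2 ratio of *Bcl6* to *Prdm1* CPM was taken in each library, a measure chosen after the values were seen. It was 1.93, 1.95 and 1.0 in scrambled replicates 1, 2 and 3 and 0.17, -0.27 and 1.14 in *Pgam* ASO replicates 1, 2 and 3. *Pgam* ASO replicate 3 lay above scrambled replicate 3, so the labels overlapped.

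Levels were compared between genes as CPM per kb of transcript, using the median length of each gene's coding transcripts. With scrambled ASO the order ran from *Bhlhe40* (206 ± 37.5 CPM per kb, SD, n = 3) through *Irf4* (109 ± 24.7), *Batf* (38.3 ± 5.98), *Maf* (10.8 ± 0.756), *Bcl6* (3.98 ± 1.68), *Il10* (1.54 ± 0.526) and *Prdm1* (1.07 ± 0.183) to *Ahr* (0.661 ± 0.216). *Il10* and *Prdm1* did not differ beyond their spread. In the libraries labelled *Pgam* ASO the first 4 genes kept their order, and *Il10* (2.0 ± 0.683 CPM per kb) stood before *Bcl6* (1.02 ± 0.536), *Prdm1* (0.657 ± 0.168) and *Ahr* (0.372 ± 0.0659), though *Bcl6* was above *Il10* in replicate 3 and below *Prdm1* in replicate 2. With the longest transcript in place of the median, mean *Bhlhe40* stayed above mean *Irf4* with scrambled ASO (119 beside 109 CPM per kb). In the *Pgam* ASO libraries its mean was below that of *Irf4* (155 beside 172), though in replicate 3 *Bhlhe40* was above *Irf4*. The order of that pair in the libraries labelled *Pgam* ASO therefore depends on the length used and on the library.

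**Figure D4:**
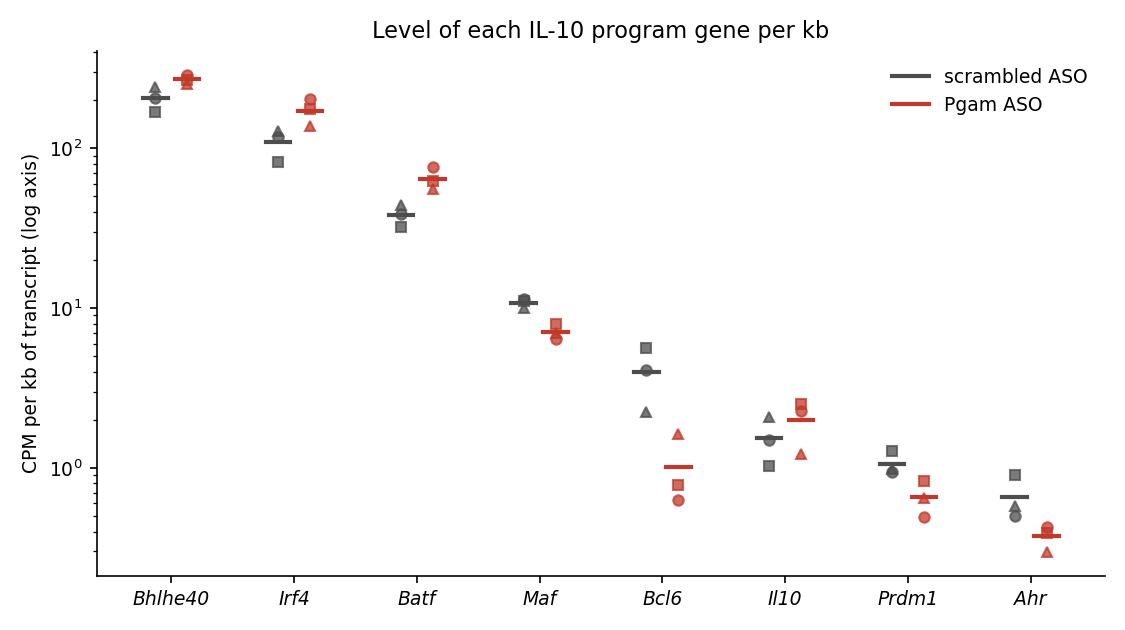
CPM per kb of median coding transcript (y axis, log scale) of the 8 genes, ordered by level in the scrambled libraries. Points are libraries and lines are means; the scrambled means run from 206 for *Bhlhe40* to 0.661 for *Ahr*.

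Promoter windows from RefSeq (build GRCm38.p6) were matched for 4 of the 8 genes, *Prdm1*, *Batf*, *Irf4* and *Bcl6*. Those of *Batf* and *Bcl6*, the called genes among them, are shown, a choice made after the results were known, as the DNA ahead of genes that differed in opposite directions. They run 5′ to 3′ on the gene's strand, up to 250 bases before the start and outside annotated exons. Capitals mark motif matches. *Batf* is at chr12:85686470-85686668 on the plus strand, and *Bcl6* has 2 starts on the minus strand, with windows at chr16:23988853-23989102, just before the annotated gene, and chr16:23981284-23981533, inside the gene and outside its exons.
Batf: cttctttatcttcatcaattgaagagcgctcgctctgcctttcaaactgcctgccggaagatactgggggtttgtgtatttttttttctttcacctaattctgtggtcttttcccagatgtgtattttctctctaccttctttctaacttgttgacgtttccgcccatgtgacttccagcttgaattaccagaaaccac
Bcl6, start 1: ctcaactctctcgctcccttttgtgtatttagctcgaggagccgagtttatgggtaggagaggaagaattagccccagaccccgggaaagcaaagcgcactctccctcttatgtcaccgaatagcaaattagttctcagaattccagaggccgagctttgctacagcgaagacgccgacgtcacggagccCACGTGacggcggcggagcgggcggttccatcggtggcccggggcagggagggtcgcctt
Bcl6, start 2: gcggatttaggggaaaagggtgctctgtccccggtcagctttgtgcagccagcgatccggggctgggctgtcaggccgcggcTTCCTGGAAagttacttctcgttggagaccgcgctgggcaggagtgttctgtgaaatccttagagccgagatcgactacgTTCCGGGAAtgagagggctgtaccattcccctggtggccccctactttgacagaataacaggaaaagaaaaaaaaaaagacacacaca

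The full windows of 250 bases were searched on both strands for motifs bound by these factors, and each match is a description of letters, not of binding. Of 32851 promoter windows, 6.02% hold the E-box CACGTG that BHLHE40 can bind, which *Bcl6* start 1 holds once, 60 bases before the start. The motif TTCCNNGAA, read by STAT proteins and by BCL6 itself, is in 4.06% of windows, and *Bcl6* start 2 holds it at 168 and 88 bases before the start, each matching on both strands. The AP-1 motif TGANTCA (6.75% of windows) matched in *Prdm1*, and the AHR core GCGTG (28.2%) matched in *Prdm1* and *Irf4*. The MAF motifs TGCTGA (16.1%) and TGCTGAC (3.81%), the longer of which contains the shorter, the IRF motif GAAANNGAA (7.13%) and the PRDM1 core GAAAGTG (4.01%) had no match in these windows, and *Batf* held none of the motifs.

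The genes most alike each member over the 6 libraries were found by the root mean square difference of centred log2 CPM, among 11921 tested genes with a mean log2 CPM of at least 1. For *Batf* they were *Mapkapk2*, *Rrp9* and *Aars* (differences of 0.0271 to 0.0361 on the log2 scale), for *Irf4* *Lap3*, *Tmem109* and *Ctps* (0.0434 to 0.0554), and for *Bhlhe40* *D8Ertd738e*, *Atp5g3* and *Orc6* (0.0258 to 0.0288). For *Maf* they were *Mterf2*, *Gm28661* and *Bcl3* (0.0507 to 0.0608), of which *Bcl3* is induced by IL-10 signalling. *Bcl6* was followed by *Smpdl3a*, *Klf3* and *Bcl2l11* (0.142 to 0.144), *Prdm1* by *Zfp953*, *Milr1* and *9430091E24Rik* (0.0449 to 0.110), *Ahr* by *Bach2os*, *Dapk1* and *Kbtbd3* (0.142 to 0.159), and *Il10* by *Slc39a7*, *Rtl10* and *Timm10* (0.111 to 0.165).

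The other gene lists, described next, were written with earlier results of these data known. A count above the share of all tested genes therefore cannot be read as a result about a list. Beyond the 8 genes, 12 of 25 other transcription factors tied to *Il10* in CD4 T cells passed edgeR's test, 6 higher and 6 lower, with a median log2 fold change of -0.11, where 17.2% of all tested genes were called. The count fell to 3 and 6 without scrambled replicates 1 and 2 and to 4 and 2 without *Pgam* ASO replicates 1 and 2, and was 9 to 13 in the other fits. *Ikzf3*, which encodes the Ikaros family protein Aiolos, was at 101 ± 42.9 CPM with scrambled ASO and 17.4 ± 5.26 with *Pgam* ASO (SD, n = 3 each; edgeR adjusted p = 0.0122). *Bach2*, a repressor that holds T cells in a less differentiated state, went from 183 ± 34.7 to 90.9 ± 4.33 CPM (SD, n = 3 each), and *Jun*, an AP-1 subunit, from 60.2 ± 5.84 to 31.1 ± 2.54 CPM (SD, n = 3 each), with edgeR adjusted p-values of 0.00173 and 0.00101. *Gata3*, the Th2 factor, rose from 48.5 ± 13.2 to 90.2 ± 19.7 CPM (SD, n = 3 each; edgeR adjusted p = 0.0321). *Junb* and *Ets1*, the most expressed genes of the list that did not pass, had log2 fold changes of 0.05 and -0.47 (edgeR adjusted p = 0.762 and 0.0697).

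Of 7 genes of the IL-10 receptor and its signalling, 5 passed, 1 higher and 4 lower, with a median log2 fold change of -0.39, beside the same 17.2% over all tested genes. Only 2 were called with the replicate block, and 2 without replicate 1 or 2 of either label; the other fits called 5. *Il10ra*, the chain that binds IL-10, was at 55.9, 47.4 and 60.1 CPM in the scrambled libraries and 102, 110 and 117 CPM in those labelled *Pgam* ASO. The labels were far apart, and log2FC was 1.01 (SE 0.10, edgeR adjusted p = 0.000731). The shared chain *Il10rb* was lower, at -0.50 (edgeR adjusted p = 0.0375), as were *Socs3*, a feedback inhibitor of cytokine signalling (-0.63, 0.0375), and *Bcl3* (-0.60, 0.00366). Of the 31-base stretches of *Il10rb*, 14.9% occur in other genes, mainly *Gm21970*, which had 0 counts. *Stat3*, the main transducer of the IL-10 signal, and *Tyk2* did not pass (log2 fold changes -0.08 and -0.02, edgeR adjusted p = 0.529 and 0.890).

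Of 4 other cytokines of the IL-10 family, *Il24* alone had enough counts to be tested, and its log2 fold change was 3.26 (edgeR adjusted p = 0.0187), a call that was lost without scrambled replicate 1, scrambled replicate 2 or *Pgam* ASO replicate 2. *Il19*, *Il20* and *Il22* were not kept by the filter. *Il22* had 4, 2 and 4 counts with scrambled ASO and 23, 17 and 5 with *Pgam* ASO, without overlap in CPM, and edgeR called it when no filter was used (log2FC 2.25, adjusted p = 0.0106). Among 10 receptors for cytokines that act upstream of *Il10*, 3 were higher and 3 lower, with a median of -0.29. These 6 calls became 1 without scrambled replicate 1 and 2 without *Pgam* ASO replicate 1 or 2, and the other fits made 4 to 8, again beside 17.2% of all tested genes. *Il4ra*, for IL-4, rose by 0.92 on the log2 scale, *Il12rb1*, for IL-12, by 0.56 and *Il2ra*, for IL-2, by 0.52 (edgeR adjusted p = 0.0012, 0.0363 and 0.0185), while *Il6ra*, for IL-6, fell by 0.81 (edgeR adjusted p = 0.0176). *Il27ra*, for the IL-10 inducer IL-27, stood at a log2FC of -0.48 (edgeR adjusted p = 0.0663), and *Il21r* one of 0.14 (edgeR adjusted p = 0.453).

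Of 18 relatives of the members, 12 were tested, with 2 higher, 3 lower and a median of -0.24, where 8.03% of all tested genes were called higher and 9.15% lower. *Batf3*, the closest relative of *Batf*, rose from 12.2 ± 6.07 to 59.9 ± 11.3 CPM (SD, n = 3 each; edgeR adjusted p = 0.0109), whereas *Irf1* and *Irf2* had log2 fold changes of -0.74 and -0.63 (edgeR adjusted p = 0.0111 and 0.0129), opposite in sign to *Irf4*. *Irf8* and *Irf9* did not pass (edgeR adjusted p = 0.165 and 0.173). Of 9 genes of the AHR pathway and its targets 7 were tested, with a median of -0.10, and 1 passed, a share near the 17.2% over all tested genes. It was *Ptges3*, a cochaperone of the receptor (0.55, edgeR adjusted p = 0.0498), which passed in only 5 of 13 alternative fits. Of its 31-base stretches, 20.9% occur in other genes, mainly a pseudogene with 4022 counts over the 6 libraries. *Arnt*, which encodes the partner of the receptor, did not pass (-0.22, edgeR adjusted p = 0.0904).

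Among 10 surface molecules of Tr1 cells, 1 was higher and 1 lower, with a median of -0.35, a share near the 17.2% called over all tested genes. *Entpd1*, which encodes the ectonucleotidase CD39, had a log2FC of -1.32 and *Cd226* one of 0.39 (edgeR adjusted p = 0.00768 and 0.0293), and *Ctla4* and *Icos* did not pass (-0.28 and -0.15, edgeR adjusted p = 0.0575 and 0.339). Of 11 T follicular helper genes that accompany BCL6, 10 were tested, 3 higher and 3 lower, with a median of 0.15, beside 8.03% and 9.15% over all tested genes. *Cxcr5*, the chemokine receptor of these cells, *Pou2af1* and *Tcf7* were lower with *Bcl6* (log2 fold changes -1.50, -1.63 and -1.19, edgeR adjusted p = 0.000855, 0.00324 and 0.0298), but *Il21*, their cytokine, was higher at 2.53 (edgeR adjusted p = 0.0157). *Cd200* and *Lef1* did not pass (edgeR adjusted p = 0.12 and 0.266).

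**Figure D5:**
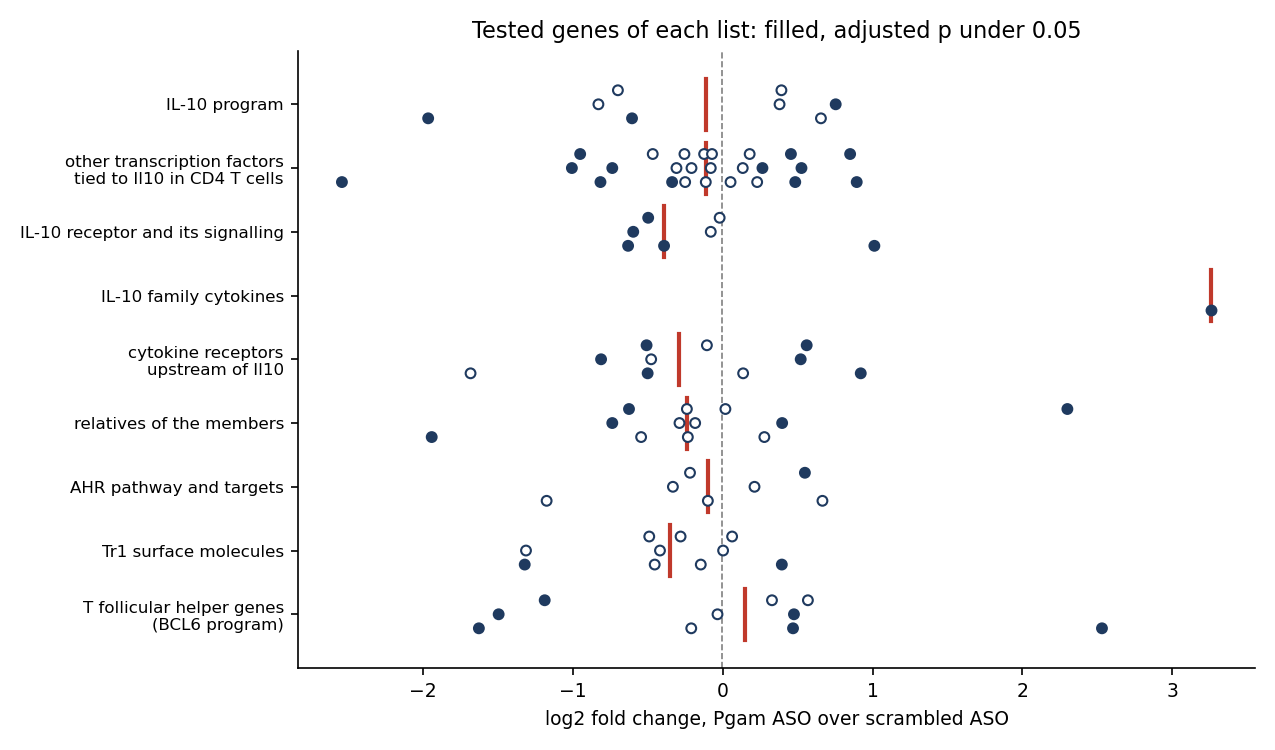
Log2 fold change (x axis), *Pgam* ASO over scrambled ASO, of the tested genes in each list; filled points passed an adjusted p of 0.05 in edgeR's test, red lines are list medians and the dashed line is the median of all tested genes, -0.0061.

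Of the 24 called genes taken as examples from these lists, 9 passed with every library left out in turn, among them *Bach2*, *Jun*, *Il10ra*, *Bcl3*, *Il4ra*, *Entpd1*, *Pou2af1* and *Cxcr5*. Leaving out *Pgam* ASO replicate 2 left 10 of the 24 called and leaving out scrambled replicate 1 left 11, while without *Pgam* ASO replicate 1, scrambled replicate 2 or scrambled replicate 3 there were 16, 19 and 23. With the replicate block 19 of the 24 were called, and *Socs3*, *Il10rb*, *Il12rb1*, *Ptges3* and *Tcf7* were lost. Over all the alternatives the calls among the relatives of the members ranged from 2 to 6, in the AHR pathway from 0 to 1, among the Tr1 surface molecules from 1 to 6 and among the T follicular helper genes from 3 to 7. The counting is not stated to use strand, so reads of *Bach2*, *Jun*, *Il4ra* and *Lef1* cannot be told apart from those of *Bach2os*, *Junos*, *Gm44876* and *Gm43352* over the 4.86%, 6.39%, 8.86% and 13.4% of stretches that they share. Those partners had 327, 132, 159 and 89 counts over the 6 libraries. *Junb* shares 6.51% of its stretches with *Prdx2*, which had 24866 counts, and of the marker genes below *Alas2* shares 11.8% with *Apex2* and *Cd8b1* 4.13% with *Plpbp* (2172 and 4167 counts). Without a filter on low counts *Il24*, *Batf3* and *Tcf7* did not pass (edgeR adjusted p = 0.0561, 0.0518 and 0.12).

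Markers of the cells themselves were read in every library. Of 7 T cell and CD4 identity genes, *Il2ra* was higher and *Foxp3* and *Trac* lower in edgeR's test, and DESeq2 called 4. All 7 had an unadjusted edgeR p under 0.05 and labels that did not overlap. Over all tested genes, edgeR called 17.2% and the labels did not overlap for 39.5%. DESeq2 called 20.7% of the genes it gave an adjusted p. These shares also stand beside the marker counts below. The share of all tested genes at an unadjusted p under 0.05 is not given, so the counts at that p, here and below, cannot be weighed against it. The summed level of the 7 genes, led by *Il2ra*, was 3988, 3909 and 4078 CPM with scrambled ASO and 4372, 4477 and 4188 CPM with *Pgam* ASO. *Il2ra* alone had a higher mean (1929 ± 295 to 2768 ± 236 CPM, SD, n = 3 each), and the other 6 had lower ones, such as *Cd4* with 770 ± 36.2 and 666 ± 26.6 CPM (SD, n = 3 each). What part this has in the results was not tested. Of the 5 B cell genes edgeR called 0, with 2 at an unadjusted p under 0.05, and DESeq2 called 2, and their sum, led by *Cd79a*, was 9.28, 11.6 and 6.63 CPM against 9.75, 8.92 and 7.87 CPM. Of 4 plasma cell genes, *Xbp1*, which T cells also express, was higher, and the sum that it leads was 357, 287 and 416 CPM against 539, 623 and 616 CPM. *Jchain* and *Mzb1*, which mark plasma cells more strictly, had too few counts to be tested.

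Only 2 of the 5 macrophage and monocyte genes (*Lyz2* and *Cd68*) and 1 of the 5 dendritic cell genes (*Zbtb46*) had enough counts to be tested. Of these 0 passed with edgeR or DESeq2, and 1 of each list had an unadjusted edgeR p under 0.05. The first list, led by *Cd68*, summed to 7.20, 7.35 and 8.18 CPM against 5.53, 5.71 and 7.22 CPM, and the second, led by *Zbtb46* and with *Siglech* at 0 in every library, to 7.03, 6.97 and 7.87 CPM against 6.89, 5.45 and 4.2 CPM. Of the 2 CD8 T cell genes *Cd8a* was higher and *Cd8b1*, the more abundant, did not pass; their sum was 11.3, 13.5 and 10.8 CPM against 14.6, 10.9 and 15.7 CPM. These other cells, which negative selection is meant to remove, can express *Il10*, *Maf*, *Irf4* or *Bcl6*, and their part in the values above was not tested.

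Of 3 NK cell genes *Klrb1c* and *Klra8* were at 0 in every library, and the sum, which is *Ncr1* alone, was 0.0563, 0.108 and 0 CPM against 0.0621, 0.0642 and 0 CPM. The 4 mast cell and basophil genes, led by *Cpa3*, summed to 1.07, 1.89 and 1.36 CPM against 4.10, 3.98 and 2.96 CPM. Only *Cpa3* had enough counts to be tested; edgeR and DESeq2 called 0 (adjusted p = 0.0526 and 0.059), 1 had an unadjusted edgeR p under 0.05, and the gene passed in 4 of the 13 alternatives. Without a filter edgeR called *Cpa3* and *Mcpt8* (adjusted p = 0.0399 and 0.0166), the latter with a log2FC of 2.71. The 4 erythroid genes, led by *Alas2*, summed to 2.76, 2.32 and 1.43 CPM against 1.30, 1.86 and 1.6 CPM, with 2 tested, 0 called by either tool and 0 at an unadjusted edgeR p under 0.05. The mast cell and basophil sum was the one of these 3 that was higher in every *Pgam* ASO library, and its part in the results was not tested.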

How the data were processed

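The authors deposited estimated counts per Ensembl gene for 6 libraries, which Kallisto estimated, as whole numbers and not normalized; the submitters' processing notes name GRCm38. The Kallisto version, the summing to genes and the use of strand are not given in the sources used here. Symbols were found for 52073 of 56748 genes, with positions and transcript lengths from GENCODE M21.

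Counts were compared in R 4.3.3 with edgeR 4.0.16 (filterByExpr, TMM, robust quasi-likelihood test, two-sided, Benjamini-Hochberg over 14936 genes, threshold 0.05). Alternatives were DESeq2 1.42.0, limma-voom (limma 3.58.1), RLE factors, library size alone, no filter, a minimum of 10 counts in all libraries, a block for the replicate number, leaving out 1 library at a time, and a threshold of 0.01. The procedure was tested on simulated data. Where each gene had its own spread, false calls made up a larger share of edgeR's calls than the nominal rate in every simulated set. The share of false calls among those given here may therefore exceed the threshold of 0.05.

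Library pairs differed beyond sampling noise (chi-square per degree of freedom 7.43 to 87.4), so none was a duplicate. The members and lists were chosen with earlier results of these data known. Named were all 8 members, *Pgam1*, *Pgam2*, *Foxp3*, the 3 genes most alike each member, and from each of 8 other lists up to 4 called genes with the largest changes and up to 2 of the most expressed that did not pass. 2 of these examples enter the counts but are not reported by name here. Markers of T, B, plasma, myeloid, dendritic, CD8, NK, mast and erythroid cells were read as lists. Shared stretches of 31 bases were counted on GENCODE transcripts.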

Additional observations from a re-analysis of the deposited data

How the results depend on the processing

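The direction of all 8 genes was the same in each of the 104 recomputed fold changes, of which 87 also kept their side of the threshold, 11 newly passed it and 6 no longer did. All these fits reuse the same counts. For the 7 genes whose labels do not overlap, leaving out a library could hardly turn the direction, so the shared direction is no independent support. The number of the 8 genes called was 3. It was 5 with DESeq2 and 5 with no filter on low counts, 4 with limma-voom, RLE factors, library size alone or at least 10 counts in every library, 1 at an adjusted p under 0.01, and 1 to 5 with a library left out. Over all tested genes the count of 2565 became 453 at an adjusted p under 0.01, 3732 without the filter and 3078 with DESeq2. Leaving out 1 library, it ran from 391 without *Pgam* ASO replicate 2 to 3484 without scrambled replicate 3; it was 620 and 1256 without scrambled replicates 1 and 2, 871 without *Pgam* ASO replicate 1 and 3319 without *Pgam* ASO replicate 3. Fits without a library have fewer samples, yet the count rose without replicate 3 of either label. The cause of the shifts was not tested.

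With the replicate block, edgeR called 1235 genes over all and 2 of the 8, *Maf* and *Batf* (adjusted p = 0.0245 and 0.0256), while *Bcl6* had an adjusted p of 0.0644. For libraries of equal number, deviations from the group means correlated across genes at 0.053, -0.034 and -0.24. Not every library correlated best with its own number. Deviations within a label are tied by their shared mean, so these correlations cannot settle whether equal numbers share an animal. The values for *Il10* rest on 25 to 51 counts per library.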
